A study of Homo sapiens with 6 samples.

Results

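A set of 9 genes of the transforming growth factor beta (TGF-beta) pathway was followed in cells labelled PANC1, a human pancreatic ductal carcinoma line, treated with vehicle or gemcitabine. They were chosen by name, 9 of the 20461 genes in the expression table: the ligands TGFB1, TGFB2 and INHBA, the receptors TGFBR1 and TGFBR2, the signal transducers SMAD3 and SMAD4, and the inhibitors SMAD7 and SKIL. The RNA-seq comparison asked how gene expression changed under gemcitabine, a nucleoside analogue that blocks DNA replication. Vehicle was 0.1% DMSO (2 libraries) and gemcitabine was given at 50 nM (2 libraries), both for 48 h. DNaseI-seq, which maps open chromatin, was available for 1 vehicle and 1 gemcitabine library. All cells were of 1 cell line, with no other treatment stated in the labels, and whether differences in RNA arose from the amount per cell or from the mix of surviving cells cannot be told apart in such bulk samples.

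TGF-beta and activin ligands bind complexes of type II and type I serine/threonine kinase receptors, and the type I receptor phosphorylates SMAD2 and SMAD3. These join SMAD4, enter the nucleus and regulate target genes, while SMAD7 and SKIL form part of a negative feedback. In pancreatic carcinoma the pathway is known for growth arrest in early lesions, for a mesenchymal change in later ones, and for frequent loss of SMAD4.

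In hg19 the ligand genes lie with TGFB1 (ENSG00000105329.5) at chr19:41807492-41859827 on the minus strand, TGFB2 (ENSG00000092969.7) at chr1:218518678-218617961 on the plus strand and INHBA (ENSG00000122641.9) at chr7:41706766-41745432 on the minus strand. The receptor genes are TGFBR1 (ENSG00000106799.7) at chr9:101866320-101916474 on the plus strand and TGFBR2 (ENSG00000163513.13) at chr3:30648093-30735634 on the plus strand. The transducers are SMAD3 (ENSG00000166949.10) at chr15:67356101-67487511 on the plus strand and SMAD4 (ENSG00000141646.9) at chr18:48554898-48611415 on the plus strand, and the inhibitors are SMAD7 (ENSG00000101665.4) at chr18:46446223-46477335 on the minus strand and SKIL (ENSG00000136603.9) at chr3:170075130-170114623 on the plus strand.

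The 4 RNA-seq libraries held 13194535 to 15766232 assigned fragments, so that 3 fragments correspond to 0.197 to 0.220 CPM (fragments scaled to the library total after TMM, which balances the libraries over most genes). The markers matched the label only in part. KRT8, KRT18, KRT7 and VIM lay between 336 and 1658 FPKM (fragments scaled to the library and to transcript length), and KRT19 and EPCAM between 2.09 and 6.91. The leukocyte markers and the endothelial marker CDH5 held at most 9 fragments in a library. Of the fibroblast markers, DCN and LUM lay between 3.02 and 9.50 FPKM, while PDGFRA held under 1 fragment. Some markers moved with treatment, in both directions. LUM held 67 and 71 fragments with vehicle and 116 and 102 after gemcitabine (adjusted p 0.00375 in edgeR). KRT19 held 45 and 45 against 94 and 88 (adjusted p 0.000651 in edgeR). KRT8 (log2 fold change 0.29) and KRT18 (0.27) also rose with an adjusted p under 0.05 in edgeR. The mesenchymal marker CDH2 (-0.39, adjusted p 0.000745 in edgeR) and KRT7 (-0.18, 0.0426) fell. DCN (-0.23), EPCAM (-0.45) and VIM (0.03) did not pass. CDKN2A, which PANC1 is known to have lost by homozygous deletion, was listed at 634 to 739 FPKM in all 4 libraries. This goes against the label, its cause was not tested, and PANC1 is used here only as the labelled name.

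On the FPKM scale, which is divided by transcript length and so allows genes to be compared, TGFB1 had the highest level of the 9. Its vehicle libraries were at 265 and 224 FPKM, and their mean was above 97.5% of all genes in the table. TGFB2 followed at a mean of 61.5 ± 4.11 FPKM (SD, n = 2), then SMAD4 at 55.3 ± 2.83, SMAD3 at 32.9 ± 1.17, TGFBR1 at 27.0 ± 2.45, SKIL at 23.8 ± 0.443 and TGFBR2 at 10.3 ± 0.600. SMAD7 was at 6.42 ± 0.537 FPKM and INHBA, which encodes the activin A subunit, was lowest at 1.36 ± 0.115. No neighbours in this order overlapped between the vehicle libraries. After gemcitabine the order was kept except that SKIL stood above TGFBR1, and those 2 genes overlapped.

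Of the 9 genes, 0 were called as changed. A gene was called when the quasi-likelihood test of edgeR gave an adjusted p under 0.05, its fold change was over 1.5, and its FPKM was at least 0.1 in 1 condition and differed by at least 1. Over all 14854 genes tested, 10.1% were called, 5.69% higher and 4.42% lower. By DESeq2 and by limma on log2 FPKM 0 of the 9 were called as well. In edgeR 5 of the 9 had an unadjusted p under 0.05, and 4 of the 9 (44.4%) had an adjusted p under 0.05, against 38.5% of all genes. TGFBR2 and SMAD3 rose, as did 18.5% of all genes, SMAD4 and INHBA fell, as did 20%, and the 5 others did not pass. In the plot of the genes by library, the conditions did not overlap for 7 of the 9, as for 69.7% of all genes tested. Gemcitabine was above vehicle for 4 of these and below for 3, against 35.0% and 34.7% of all genes.

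**Figure D1:**
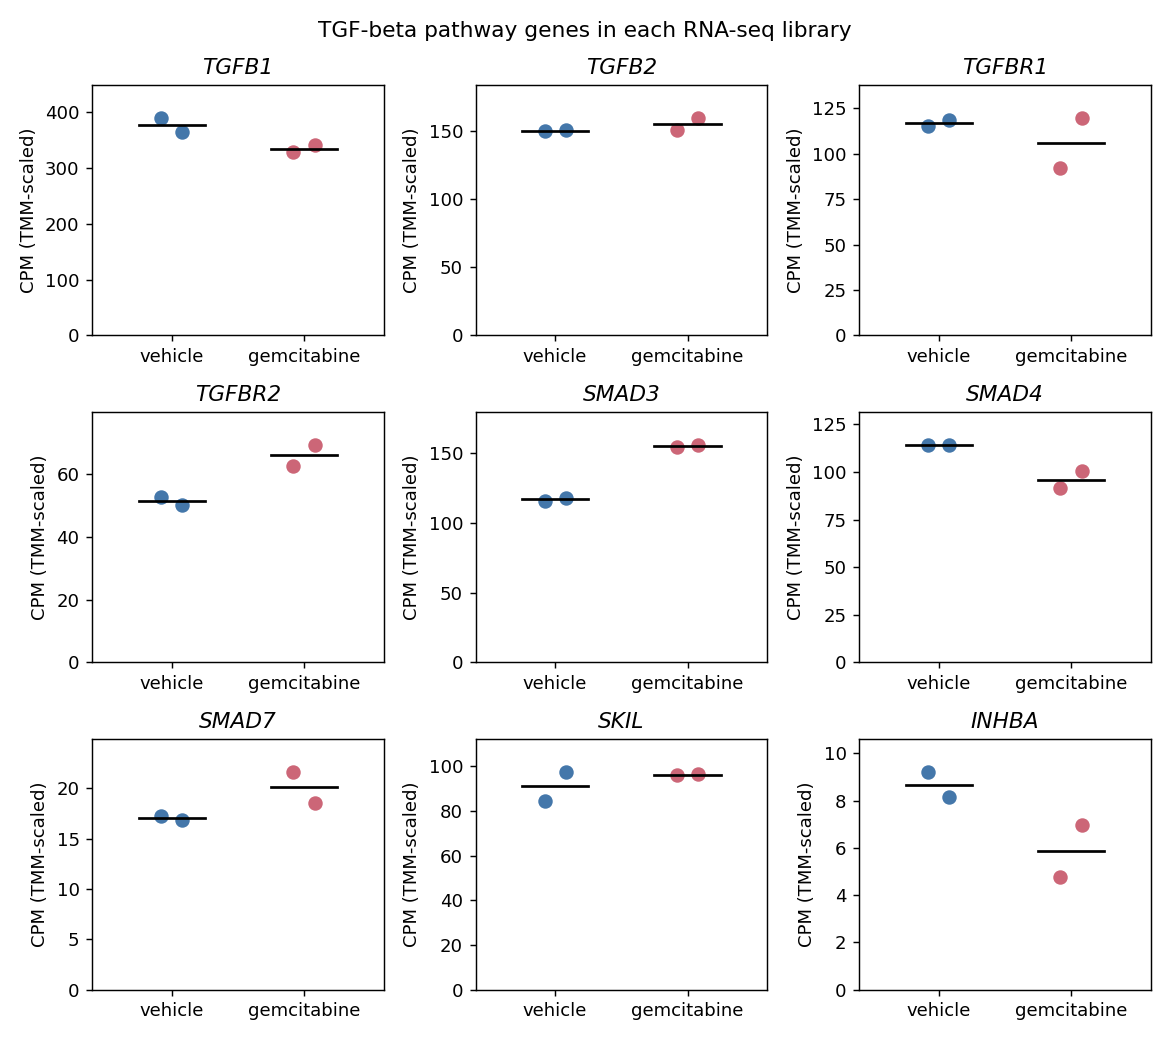
CPM after TMM scaling (y axis, from 0) in each of the 2 vehicle and 2 gemcitabine RNA-seq libraries (points), with the mean as a line. SMAD3 shows the 2 gemcitabine libraries together at 154 and 156 CPM, above the vehicle libraries at 116 and 118.

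Among the ligands, TGFB1, the main secreted TGF-beta isoform, held 390.2 and 364 CPM in the vehicle libraries and 328 and 341 in the gemcitabine libraries. Both gemcitabine libraries lay below both vehicle libraries. The log2 fold change was -0.17 (SE 0.067), and the adjusted p of 0.0563 in edgeR did not pass. On the FPKM scale the gene lay the other way, at 294 and 287 after gemcitabine against 265 and 224 with vehicle, and over 11639 genes the median log2 ratio of FPKM was 0.10 while that of fragments was -0.03. Without gemcitabine replicate 1 or gemcitabine replicate 2 the adjusted p in edgeR was 0.0352 or 0.00221. Here and in all such fits the condition left with 1 library was assumed to vary like the other, and the gemcitabine libraries differed more from each other (mean chi-square per gene 5.16) than the vehicle libraries (2.17), which bears on the p-values of such fits. Genes on the opposite strand (HNRNPUL1, CCDC97 and TMEM91) overlap TGFB1, and the counting is not stated to use strand.

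TGFB2, the isoform best known from epithelial and mesenchymal development, held 149.9 and 150.4 CPM with vehicle and 150.4 and 159.6 after gemcitabine. The lowest gemcitabine library was barely above the highest vehicle library. Its log2 fold change was 0.05 (95% interval -0.10 to 0.19), with an adjusted p of 0.618 in edgeR.

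INHBA held 9.22 and 8.14 CPM with vehicle and 4.76 and 6.98 after gemcitabine, from 134, 124, 66 and 95 fragments. Each gemcitabine library was below both vehicle libraries, with a log2 fold change of -0.57 (SE 0.196) and an adjusted p of 0.0333 in edgeR. The fold change was under 1.5 and the difference in FPKM under 1, so the gene was not called. By DESeq2 the adjusted p was 0.145. The adjusted p in edgeR was 0.271 without vehicle replicate 1, 0.138 without vehicle replicate 2 and 0.197 without gemcitabine replicate 1. The antisense gene INHBA-AS1 lies on the other strand.

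Of the receptors, TGFBR1, the type I kinase, held 115 and 118 CPM with vehicle and 92.1 and 119.9 after gemcitabine. The conditions overlapped, since only gemcitabine replicate 1 was low. Its log2 fold change was -0.14 (95% interval -0.35 to 0.06), with an adjusted p of 0.262 in edgeR. Without gemcitabine replicate 1 the value was 0.037, and without gemcitabine replicate 2 it was -0.34 with an adjusted p of 5.89e-06 in edgeR.

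TGFBR2, the type II kinase that binds the ligand first, held 52.7 and 50.3 CPM with vehicle and 62.8 and 69.5 after gemcitabine. Both gemcitabine libraries were above both vehicle libraries. The log2 fold change was 0.36 (SE 0.078) and the adjusted p 0.00219 in edgeR. It rose less than the 1.5-fold that a call needs, and without vehicle replicate 2 the adjusted p was 0.0709 in edgeR.

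SMAD3, which carries the signal of TGF-beta and activin to DNA, had the narrowest range of fold change of the 9 when a library was left out. It held 116 and 118 CPM with vehicle and 154 and 156 after gemcitabine, from 1687, 1794, 2143 and 2125 fragments. Genes on the opposite strand (ENSG00000259347 and ENSG00000259202) overlap SMAD3, and their share of these fragments was not tested. The conditions were separated by more than the spread within either. The log2 fold change was 0.41 (SE 0.065, 95% interval 0.27 to 0.55), with an adjusted p of 0.000191 in edgeR. The adjusted p of SMAD3 was also under 0.05 by DESeq2 and by limma on log2(FPKM + 1), where it was 8.94e-06 and 0.0306. When 1 library was left out the log2 fold change ranged from 0.40 to 0.43, and the highest adjusted p was 0.0246 in edgeR, without vehicle replicate 1.

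SMAD4, the common partner of the receptor-activated SMADs, held 114 CPM in each vehicle library and 91.5 and 100.4 after gemcitabine. Both gemcitabine libraries were below the vehicle libraries, with a log2 fold change of -0.25 (SE 0.069) and an adjusted p of 0.0104 in edgeR. On FPKM the conditions overlapped, at 53.3 and 57.3 with vehicle against 55.8 and 57.5 after gemcitabine. Without vehicle replicate 1 or vehicle replicate 2 the adjusted p in edgeR was 0.123 or 0.120. A gene model on the same strand overlaps SMAD4 and held 2.08 to 19.0 fragments, and how fragments were divided between them was not tested.

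SMAD7, the inhibitory SMAD that blocks the type I receptor, held 17.2 and 16.8 CPM with vehicle and 21.6 and 18.6 after gemcitabine. The gemcitabine libraries were both above, and the log2 fold change of 0.24 (SE 0.113) had an adjusted p of 0.107 in edgeR. Without gemcitabine replicate 2 the adjusted p was 0.0154 in edgeR. SKIL, the co-repressor also called SnoN, held 84.6 and 97.5 CPM with vehicle and 96.2 and 96.5 after gemcitabine. Here the conditions overlapped, and the log2 fold change was 0.08 (95% interval -0.08 to 0.24) with an adjusted p of 0.430 in edgeR.

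**Figure D2:**
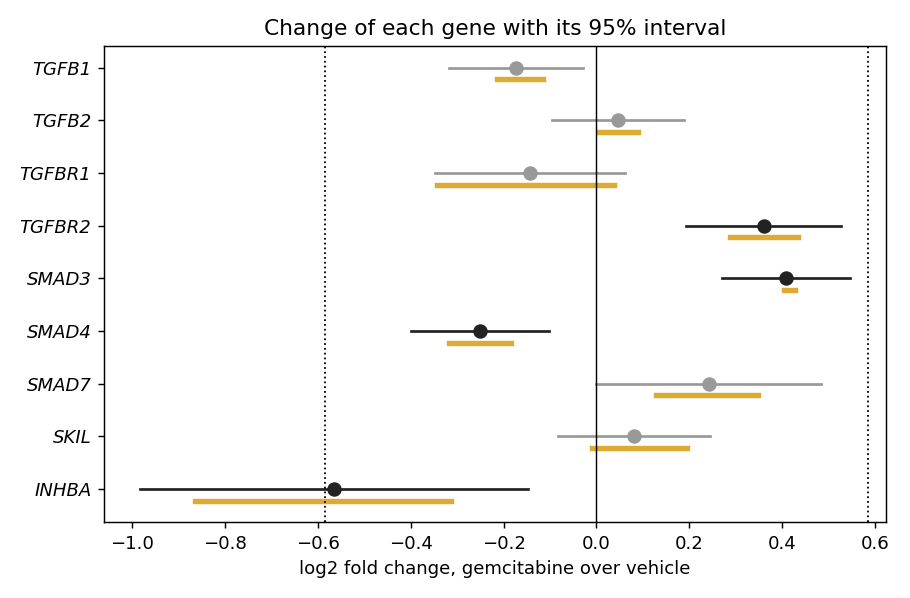
Log2 fold change, gemcitabine over vehicle (x axis), of each gene (point) with its 95% interval from edgeR (thin line, black where the adjusted p is under 0.05, grey otherwise) and the range when 1 library is left out (yellow). The dotted lines mark a fold of 1.5, and SMAD3 has the shortest yellow range, 0.40 to 0.43.

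The other genes of the pathway were read in lists by role, 101 genes of the table of which 89 were tested. Of these, 15 were called higher and 4 lower, where 5.69% and 4.42% of all genes were. Target genes made up 11 of the 15, and in the other lists the share called higher was 0% to 10.5%. Of the 28 target genes 11 (39.3%) were called higher and 1 lower, against 5.69% and 4.42% of all genes. Their median log2 fold change was 0.58 against 0.01. By adjusted p alone 16 rose, 3 fell and 9 did not pass in edgeR, where 18.5% of all genes rose and 20% fell. The lists were written with earlier results of these data known, so these shares are a description and not an independent test. Several of these targets are also known as targets of other factors, CDKN1A of p53 and CCN2 of YAP among them, and which pathway moved them was not tested. By DESeq2 11 target genes were called higher, 10 of the 11 among them, and by limma on log2(FPKM + 1) 10 were, 9 of the 11 among them. With limma 0 genes of any list were called lower.

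Among target genes of the extracellular matrix and adhesion, CCN2 (connective tissue growth factor) held 354 and 356 CPM with vehicle and 591 and 682 after gemcitabine. TGFBI, a secreted matrix protein, held 428 and 405 against 677 and 742 CPM. The gemcitabine libraries were above the vehicle libraries for both genes, with log2 fold changes of 0.84 and 0.77. The matrix and fibroblast marker LUM also rose, as given above. The fibroblast marker DCN did not pass (-0.23, adjusted p 0.597 in edgeR), and PDGFRA held under 1 fragment. A relation of these markers to CCN2 and TGFBI was not tested. FN1 (fibronectin, 0.64) and NEDD9 (a focal adhesion scaffold, 1.52) were also called higher. COL1A1, the most abundant of the list by CPM, did not pass, with 4271 and 4114 CPM against 4087 and 4496.

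The cell-cycle inhibitors CDKN1A and CDKN2B were called higher. CDKN1A (p21) held 133 and 135 CPM with vehicle and 330.0 and 327 after gemcitabine, a log2 fold change of 1.29. CDKN2B (p15), a classic TGF-beta response gene, held 29.4 and 32.2 against 69.7 and 62.7 CPM, a log2 fold change of 1.10. The cytokine IL11 (1.35) and the kinase LIMK2 (0.67) were higher as well. The transcription regulators were mixed: ID2 (0.71) and SNAI2 (0.73) were called higher, and SNAI1 (-0.59), which like SNAI2 represses E-cadherin, was called lower. Of the regulators not called, ID3 fell (-0.42, adjusted p 0.000168 in edgeR) and BHLHE40 rose (0.27, 0.00585). ID1 (-0.12), JUNB (-0.13) and ZEB1 (-0.25) did not pass, nor did the target gene PMEPA1 (0.11). These uncalled genes were named after their values were seen. By limma on log2(FPKM + 1) the adjusted p was 0.110 for LIMK2, 0.0765 for SNAI2 and 0.112 for SNAI1, and by DESeq2 it was 0.0629 for ID2. The adjusted p of ID2 in edgeR was 0.0841 without vehicle replicate 1, 0.172 without vehicle replicate 2 and 0.0904 without gemcitabine replicate 1. That of SNAI2 was 0.0942 without vehicle replicate 2, and that of SNAI1 was 0.0833 without vehicle replicate 1. TPM1 fell by 0.20 (adjusted p 0.0449 in edgeR, 0.0529 by DESeq2), which it no longer passed in edgeR without vehicle replicate 1 (0.205), vehicle replicate 2 (0.366) or gemcitabine replicate 2 (0.139). CCN1 did not pass at -0.15, but had an adjusted p of 0.00548 in edgeR without gemcitabine replicate 1.

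**Figure D3:**
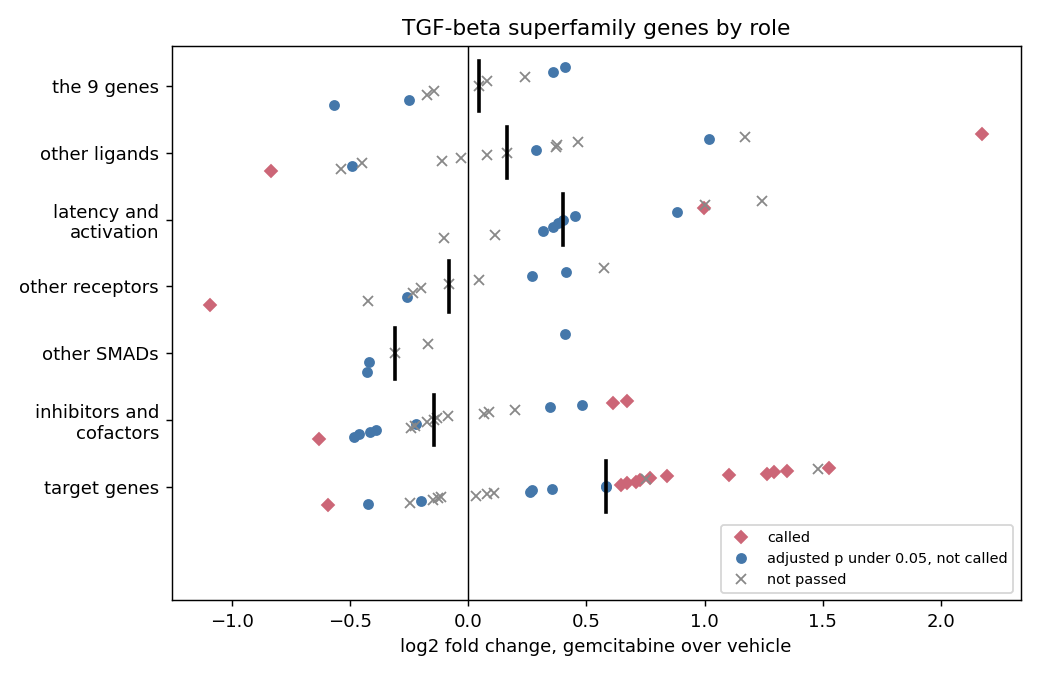
Log2 fold change, gemcitabine over vehicle (x axis), of each tested gene by role in the pathway, with diamonds for called genes, circles for an adjusted p under 0.05 without a call, crosses for genes not passing, and black bars for the median of each list. ACVRL1, with 0 fragments in both vehicle libraries, is in the median but not drawn, and the target genes lie furthest right, at a median of 0.58.

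The list for TGF-beta latency and activation held 11 genes. Of these, 7 rose with an adjusted p under 0.05 in edgeR and 0 fell, against 18.5% and 20% of all genes. The median log2 fold change of the list was 0.40, and 1 (9.09%) was called, against 10.1% of all genes. By DESeq2 5 of these 7 rose, without ITGB6 and ITGB8, and by limma on log2(FPKM + 1) 3 did, without THBS1, LTBP1, ITGB6 and ITGB8. The called gene was LTBP2, a matrix protein grouped by name with the latent TGF-beta binding proteins. LTBP2 held 6.60 and 5.45 CPM with vehicle and 10.9 and 13.2 after gemcitabine. Whether its product binds TGF-beta was not tested. THBS1 (thrombospondin 1, an activator of latent TGF-beta) held 155 and 165 against 201 and 209.7 CPM, a log2 fold change of 0.36. The other 5, named after their values were seen, were LTBP1 (0.32), LTBP3 (0.40), ITGAV (0.45), ITGB6 (0.88) and ITGB8 (0.38), and ITGB6 turned to -0.046 on log2(FPKM + 1). LTBP4 (0.12) and FURIN (-0.10, adjusted p 0.353 in edgeR) did not pass, and FURIN had the lowest fold change of the list. Without vehicle replicate 1 the adjusted p in edgeR was 0.0540 for THBS1, 0.0772 for LTBP1, 0.122 for ITGB6 and 0.142 for ITGB8. Without vehicle replicate 2 it was 0.0966 for LTBP1, 0.0511 for ITGB6 and 0.0626 for ITGB8.

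Of the other ligands, 15 of 26 were tested, with 1 called higher (6.67%) and 1 lower, against 5.69% and 4.42% of all genes. GDF15, a divergent family member and stress-induced cytokine, held 14.7 and 13.7 CPM with vehicle and 66.6 and 61.4 after gemcitabine, a log2 fold change of 2.17. BMP2, a bone morphogenetic protein, held 17.3 and 17.6 against 9.29 and 10.3 CPM, a log2 fold change of -0.84 that did not pass by limma on log2(FPKM + 1) (adjusted p 0.0573). Of the 11 other receptors tested 1 (9.09%) was called, against 10.1% of all genes. This gene, ACVR2B (an activin type II receptor), was called lower, from 5.57 and 6.83 to 3.10 and 2.72 CPM. It did not pass by limma on log2(FPKM + 1) (adjusted p 0.0635). The endothelial co-receptor ENG fell by 0.26 and the type I receptor ACVR1 rose by 0.41 on the log2 scale, neither past the fold of a call. ENG did not pass with library totals (adjusted p 0.0666 in edgeR) or by limma on log2(FPKM + 1) (0.297). Without vehicle replicate 1 the adjusted p in edgeR was 0.125 for ENG and 0.0573 for ACVR1, and without vehicle replicate 2 it was 0.0780 for ENG and 0.0643 for ACVR2B. ACVRL1, named after its values were seen, held 0 fragments in both vehicle libraries and 10 and 7 after gemcitabine, at least 3.06-fold higher in CPM against a floor of 3 fragments per library.

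The 5 other SMADs went both ways. SMAD2, the other receptor-activated SMAD of the TGF-beta branch, held 234 and 227 CPM with vehicle and 168 and 177 after gemcitabine, a log2 fold change of -0.42 (adjusted p 0.000196 in edgeR). It thus lay opposite to SMAD3, and no test of that difference was run. On FPKM the fall of SMAD2 was -0.17 and did not pass. SMAD1 of the BMP branch fell by 0.43 but did not pass by DESeq2 (adjusted p 0.0860) or by limma on log2(FPKM + 1) (0.440), and SMAD5 (-0.17) and SMAD9 (-0.31) did not pass. SMAD6, an inhibitory SMAD like SMAD7 and named with SMAD9 after values were seen, rose by 0.41. The adjusted p in edgeR was 0.128 for SMAD1 without vehicle replicate 1, and without vehicle replicate 2 it was 0.0887 for SMAD1 and 0.0686 for SMAD6. Without gemcitabine replicate 2 SMAD5 (0.000574) and SMAD9 (0.00170) passed as lower.

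Among 19 inhibitors and cofactors, 2 were called higher and 1 lower, against 5.69% and 4.42% of all genes. By adjusted p alone 4 rose and 6 fell, against 18.5% and 20% of all genes. FST (follistatin, which binds activin) held 13.7 and 12.1 CPM with vehicle and 19.4 and 21.8 after gemcitabine. Its relative FSTL3 went the other way, from 343 and 330 to 215 and 219.8 CPM, a log2 fold change of -0.63. LDLRAD4, a membrane protein that limits SMAD2 and SMAD3 phosphorylation, was higher at 0.61. The co-repressors SKI (-0.39) and TGIF2 (-0.48), named after their values were seen, fell but did not pass by limma on log2(FPKM + 1) (adjusted p 0.167 and 0.0511). Also named after their values were seen, PPM1A (-0.46), ZFYVE9 (-0.42) and TRIM33 (-0.22) fell, and GREM1 (0.48) and CHRD (0.34) rose. By DESeq2 2 genes of the list passed as higher and 5 as lower, and by limma on log2(FPKM + 1) 2 and 1. Those passing as higher were FST and LDLRAD4 by both methods, so GREM1 and CHRD passed by neither. The 1 lower by limma was FSTL3, so PPM1A, ZFYVE9 and TRIM33 did not pass there. FKBP1A (0.07), TGIF1 (-0.15) and USP15 (-0.18) did not pass.

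DNaseI peaks had been called in each condition, 9606 with vehicle and 10695 with gemcitabine, and with 1 library each no difference was tested. A peak lay within 5 kb of an annotated transcript start for 4 of the 9 genes with vehicle (SKIL, SMAD3, SMAD4, TGFBR2) and for 3 with gemcitabine (SKIL, SMAD3, SMAD7). The share over all genes was 26.0% with vehicle and 30% with gemcitabine. Within 20 kb of the genes there were 10 vehicle and 12 gemcitabine peaks, and 7 of the 12 overlapped a vehicle peak by at least 1 base. TGFBR1 and INHBA had none.

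**Figure D4:**
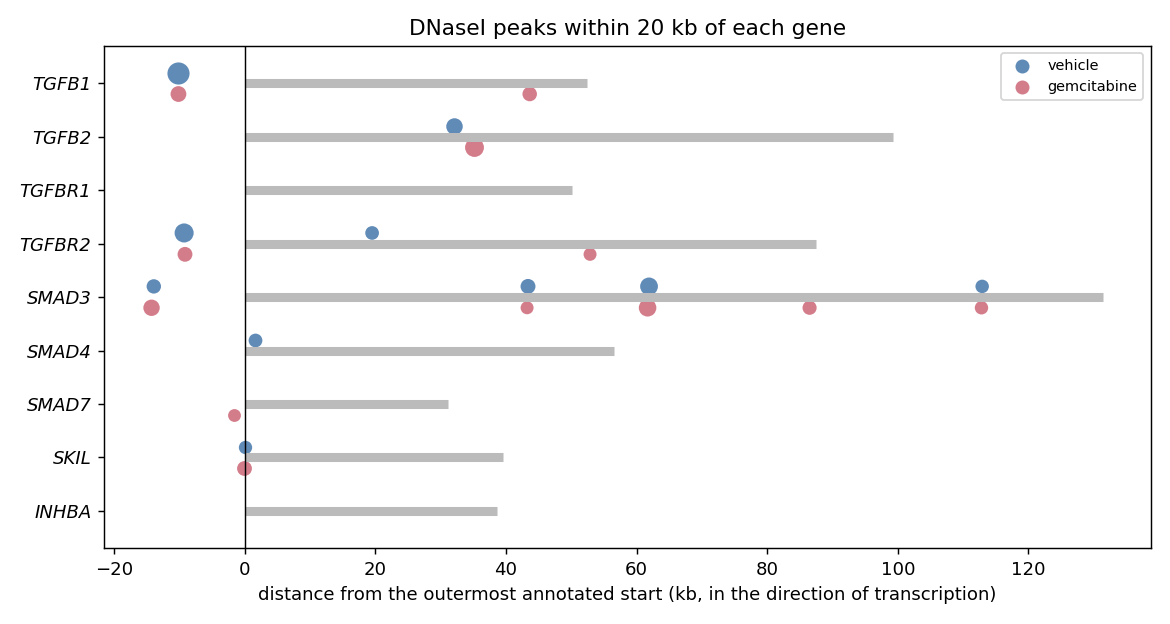
Centre of each DNaseI peak (points, area in proportion to the peak score) by distance in kb from the outermost annotated start of the gene (x axis), above the gene's grey extent for vehicle and below for gemcitabine. SMAD3 has the most peaks, 4 with vehicle and 5 with gemcitabine.

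SMAD3 held 4 vehicle and 5 gemcitabine peaks, and each of the 4 was present in both lists. The strongest covered an internal transcript start 62.0 kb from the outermost start, with a score (-10 times log10 of the p-value) of 96.8 with vehicle and 94.5 with gemcitabine. SKIL had a peak over its outermost start in both conditions, with scores of 54.4 and 67.5. TGFBR2 had a shared peak upstream, centred at -9285 bases from the outermost start with vehicle and -9152 with gemcitabine, scored 111 and 67.5, and an intragenic peak in each list that the other lacked. SMAD4 had a peak at its start with vehicle only (58.0), and SMAD7 one centred at -1643 bases with gemcitabine only (50.5), just over the lowest score of 50 in the lists. TGFB2 had 1 intragenic peak in each list, which did not overlap, and the shared peak upstream of TGFB1 lies within 1 kb of the starts of B9D2 and TMEM91. A gemcitabine-only peak inside TGFB1 lies within 1 kb of a start of CCDC97.

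The 3 shared regions are printed since they are open in both conditions and carry the strongest shared peak of SKIL, SMAD3 and TGFBR2. They are hg19 plus strand, 300 bases each, in the direction of transcription. The SKIL stretch (chr3:170074830-170075129) ends 1 base before the outermost start, the SMAD3 stretch (chr15:67417754-67418053) ends before the internal start inside an intron of the longer transcripts, and the TGFBR2 stretch (chr3:30638682-30638981) is the middle of the upstream region. Capitals mark matches on either strand to CAGACA (the CAGA box bound by SMAD3 and SMAD4, TGTCTG on the other strand) or TGACTCA (the AP-1 site, TGAGTCA on the other strand). GTCTAGAC (the SMAD palindrome) was also searched, and no matches of different motifs overlap in these stretches.
SKIL: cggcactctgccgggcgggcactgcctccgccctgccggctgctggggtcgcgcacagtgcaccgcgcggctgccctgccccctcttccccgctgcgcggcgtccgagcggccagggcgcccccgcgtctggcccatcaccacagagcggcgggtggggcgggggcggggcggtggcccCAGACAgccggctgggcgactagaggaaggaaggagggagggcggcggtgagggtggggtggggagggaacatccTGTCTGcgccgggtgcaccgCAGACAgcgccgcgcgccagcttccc
SMAD3: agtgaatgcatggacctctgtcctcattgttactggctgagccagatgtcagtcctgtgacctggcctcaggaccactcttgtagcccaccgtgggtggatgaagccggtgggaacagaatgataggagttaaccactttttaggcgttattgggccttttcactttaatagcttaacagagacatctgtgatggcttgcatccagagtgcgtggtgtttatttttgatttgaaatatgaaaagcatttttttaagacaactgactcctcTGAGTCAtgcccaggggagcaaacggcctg
TGFBR2: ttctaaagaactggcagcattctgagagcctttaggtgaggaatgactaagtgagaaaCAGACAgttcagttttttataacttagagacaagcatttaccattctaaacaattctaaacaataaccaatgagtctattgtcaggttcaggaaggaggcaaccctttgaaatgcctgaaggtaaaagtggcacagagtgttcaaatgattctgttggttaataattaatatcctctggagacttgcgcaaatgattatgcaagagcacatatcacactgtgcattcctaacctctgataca
The SKIL stretch, 77.7% G and C, held 3 CAGACA matches, at -121, -46 and -26 from the start, TGFBR2 held 1 and SMAD3 held 1 TGACTCA match. None of the 3 held GTCTAGAC. Over their whole width, the 1 peak near these genes with a GTCTAGAC match was the gemcitabine-only peak upstream of SMAD7, which is 841 bases wide, and 0.720% of all gemcitabine peaks held one. In the same 300 bases before the outermost start of 19606 genes, 15.1% held CAGACA, 3.98% TGACTCA and 0.189% GTCTAGAC. In the 300 bases at peak centres the shares were 16.7% and 17.8% for CAGACA and 17.5% and 14.8% for TGACTCA, vehicle and gemcitabine. Of the 9 genes, TGFB2 also held 1 CAGACA match before its start, at -53. A match is a description of these letters and is no evidence of binding.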

How the data were processed

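RNA was measured in 2 vehicle and 2 gemcitabine libraries and open chromatin in 1 of each. Single-end reads were mapped by the authors with TopHat2 2.0.8 (build hg19), and Cuffdiff 2.0.2 was run on protein-coding genes of Gencode, which gave the deposited estimated counts (fragments per gene) and the deposited FPKM. MACS was used by the authors for peaks, with a threshold p-value of 1e-05 and the same build, and the deposited score is -10 times log10 of that p-value; the MACS version is not given in the sources used here. The study calls the 2 libraries of a condition biological replicates.

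Estimated counts were rounded, genes summing to 10 or more fragments were kept (14854), scaled by TMM and tested with edgeR 4.0.16 (R 4.3.3, quasi-likelihood F-test, 2-sided, no covariates, Benjamini-Hochberg over all tested genes). SE is the fold change divided by the square root of F. CPM is fragments scaled by TMM. DESeq2 1.42.0 and limma 3.58.1 were alternatives. Other alternatives were other size factors, library totals, other filters and p thresholds, and each library left out. The test was checked on simulated data. The 275 genes that Cuffdiff flags as failed in any library stayed in. Cuffdiff itself was not run and its comparison columns were not used.

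The members, lists and tests were chosen with earlier results of these data known. Named genes are the 9 members, every called list gene (1 of which is not reported here) and up to 3 of the highest remaining list genes by FPKM. The rule for genes of like pattern named 0 genes, since no member was called. Library numbers only tell libraries apart. Gene positions are those of a later Gencode annotation on the same build.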

Additional observations from a re-analysis of the deposited data

How the results depend on the processing

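The number of the 9 genes called was 0 under every alternative except an adjusted p under 0.05 alone, which gave 4. The number with an adjusted p under 0.05 was 1 with limma on log2(FPKM + 1) and 1 on log2(FPKM + 0.1), and 1 to 7 when 1 library was left out. Over all genes, the calls were 2751 higher and 2975 lower with adjusted p alone, and 1164 higher and 418 lower with library totals, 894 and 326 with limma on log2(FPKM + 1), and 910 and 350 on log2(FPKM + 0.1), so that 73.6%, 73.3% and 72.2% of calls were higher against 56.3%. Library totals moved the median log2 fold change of all genes from 0.01 to 0.12. List calls were 34 higher and 15 lower with adjusted p alone, with 2 lower by library totals and 0 and 0 lower by limma, and 13 to 15 higher and 3 to 4 lower when 1 library was left out.

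Fold changes of the 9 genes (log2) changed as follows. TGFB1 turned to 0.25 and 0.26 with limma and ranged from -0.21 to -0.11 without 1 library. TGFBR1 ranged from -0.34 to 0.037, SKIL from -0.010 to 0.20, TGFBR2 from 0.29 to 0.43, SMAD4 from -0.32 to -0.18, SMAD7 from 0.13 to 0.35 and INHBA from -0.86 to -0.31. TGFBR2 no longer passed with limma (0.44, 0.47), nor did SMAD4 with library totals (-0.14), turning to 0.036 and 0.037 with limma. SMAD7 passed with library totals (0.35). INHBA did not pass by DESeq2 (-0.56), library totals (-0.46), no filter (-0.56) or limma (-0.27, -0.47). COL1A1 ranged from -0.035 to 0.10 without 1 library, and ITGB6 turned to -0.046 and -0.11 with limma. The causes were not tested. By CPM, 5 of the 9 genes kept their rank under gemcitabine. At a peak score of at least 100, 0 and 0 of the 9 had a near peak. With the outermost start only 2 had one with vehicle, and within 10 kb 5 had one with gemcitabine.

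No paired analysis was possible because the table numbers its libraries with an index that no source links to the numbering of the samples.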
